A study of Rattus norvegicus with 12 samples.

Results

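The data compare L6 myotubes treated with pinosylvin with control myotubes. They are 6 of the 12 arrays of the series, chosen by their labels as the 3 pinosylvin and the 3 control arrays. L6 cells are myoblasts of rat skeletal muscle, grown as a line, that stop dividing and fuse into multinucleated myotubes. The cells of every group had been differentiated for 6 days by the sample labels, came from the same batch of cells and were treated in 3 independent experiments. The paper, which describes the GR24 treatment, gives 7 days of differentiation. The pinosylvin group received 60 µM pinosylvin for 24 h, and the control group received the solvent DMSO for 24 h. The other 6 arrays, 3 of cells given 60 µM resveratrol and 3 of cells given 60 µM GR24, a synthetic strigolactone, both for 24 h, serve here for comparison with pinosylvin.

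Pinosylvin is a stilbene found in the heartwood of pines, and resveratrol is a stilbene with an additional hydroxyl group. Stilbenes are studied in muscle cells for effects on glucose uptake, oxidative stress and mitochondria. In a differentiating culture, the mitotic genes are expressed by cells that still divide, whereas the contractile genes are expressed by the fused myotubes. Cholesterol synthesis is controlled by sterol regulatory element binding proteins, which activate the genes of the pathway together when sterols are scarce, and oxidative stress genes are controlled in large part by the factor Nrf2.

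RNA was measured on 1-colour Agilent arrays with 58717 spots other than controls, and on the 6 arrays the signal was well above background at 59.5% to 64.3% of them. Values are log2 signals relative to the 75th percentile of the array, so that 0 stands at that percentile and a difference of 1 is a 2-fold change. A ± sign gives the standard error of a log2 fold change from limma, with 3 arrays per group. A gene is said to have risen or fallen where the adjusted p was under 0.05. Of 24279 probes tested, 2010 (8.28%) were higher and 2009 (8.27%) were lower with pinosylvin than in the control. Of 10741 genes with a name, 923 (8.59%) rose and 1049 (9.77%) fell, and the median change of all of them was 0.04. The decreases were larger than the increases. Among the genes changed by at least 1 on the log2 scale, 228 had fallen and 55 had risen. The median was -0.54 for the genes that fell and 0.42 for those that rose. With the replicate number as a block, 3954 probes were higher and 2993 lower, and 1839 genes (17.1%) rose and 1536 (14.3%) fell. The counts of every list below are to be read beside these shares of all named genes. Leaving out pinosylvin replicate 1 or replicate 2 brought the count of higher probes to 1250 or 1236.

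The cells carried the markers of myotubes. Of 12 marker genes, 11 had a tested probe and 1 had no named probe. With pinosylvin 3 of these genes rose and 1 fell, and with blocks 4 rose and 1 fell. Their summed signal, in multiples of the array's 75th percentile, was 1499, 1703 and 1493 on the control arrays. It was 1643, 1767 and 1702 on the pinosylvin arrays, with *Myl11* (myosin light chain 11) as the brightest gene. Of 12 markers of undifferentiated myoblasts, 9 were tested, 2 rose and 3 fell, with summed signals of 195, 199 and 184 in the control and 147, 150 and 140 with pinosylvin. Vimentin (*Vim*), the brightest of them, fell by 0.47 ± 0.08 (adjusted p = 0.0023), and *Id3* and *Cd34* did not pass the filter for testing. Without *Vim* the sums were 25.8, 25.8 and 30.3 in the control and 26.0, 25.0 and 27.8 with pinosylvin, so the decrease of the sum was that of *Vim*. Of 10 fibroblast markers, 8 were tested, 2 rose and 2 fell, and their sums were 255, 260 and 243 in the control and 219, 220 and 222 with pinosylvin. The brightest, *Col3a1*, was not past the threshold (log2 fold change -0.09). Without *Col3a1* the sums were also lower with pinosylvin, at 124, 125 and 116 in the control and 90.6, 98.0 and 103 with pinosylvin. Of 8 adipocyte markers 2 were tested, and *Adipoq*, *Lep* and *Fabp4* were at background on all 6 arrays. Both tested genes rose, *Cebpa* by 0.32 ± 0.07 and *Cfd* by 0.41 ± 0.10, and the call of *Cfd* was lost without control replicate 3 (adjusted p = 0.0747), pinosylvin replicate 1 (0.0853) or pinosylvin replicate 2 (0.0706). Both calls were lost with no filter on dim probes and with only the 6 arrays compared in the fit. The sums of the 2 genes were 3.06, 3.26 and 2.85 in the control and 4.08, 4.05 and 3.65 with pinosylvin. *Cebpa* was the brighter gene. Of 10 immune and endothelial markers, 6 did not pass the filter for testing. Of these, *Ptprc* and *Cd3e* were at background on all 6 arrays, and *Pecam1* was well above it on 0 of 3 control and 2 of 3 pinosylvin arrays. The other 4, of which *Vwf* was the brightest, had sums of 4.71, 4.58 and 5.33 in the control and 4.78, 4.69 and 5.20 with pinosylvin. The part of such cells in the changes below was not tested.

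The genes of mitosis fell as a whole. Of 38 mitotic genes, 33 were tested and all 33 had fallen, by a median of 1.64 on the log2 scale and a range of 1.19 to 2.04. Within the arrays of a single slide the median change was -1.62 and -1.71, and it lay between -1.68 and -1.60 when any of the 6 arrays was left out. In RNA of whole cultures, fewer cells in division and less of these RNAs per dividing cell cannot be told apart. *Kif11* (kinesin family member 11), a motor that pushes the spindle poles apart, had log2 signals of 2.87, 2.79 and 2.76 on the control arrays and 0.72, 0.77 and 0.82 on the pinosylvin arrays. All 3 pinosylvin arrays lay far below all control arrays, a 4.11-fold decrease (log2 fold change -2.04 ± 0.06, adjusted p = 1.8e-07). *Ect2* (epithelial cell transforming 2), which places the cleavage furrow, went from 2.27, 2.29 and 2.22 to 0.32, 0.42 and 0.43 (log2 fold change -1.86 ± 0.06, adjusted p = 1.8e-07). *Plk1* (polo like kinase 1), the main kinase of spindle assembly, was at 3.89, 3.98 and 3.94 in the control and 2.02, 2.10 and 1.95 with pinosylvin (log2 fold change -1.91 ± 0.07, adjusted p = 2.75e-07). The values within a group differed by far less than the groups did.

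The decrease reached every step of division that was listed. Cyclin A2 (*Ccna2*) fell by 1.92 ± 0.09, cyclin B1 (*Ccnb1*) by 1.74 ± 0.14 and their partner *Cdk1* (cyclin dependent kinase 1) by 1.39 ± 0.06. Among kinetochore genes, which attach chromosomes to the spindle, *Ndc80* fell by 1.90 ± 0.07 and *Nuf2* by 1.77 ± 0.07. Of the factors that start anaphase, the ubiquitin conjugating enzyme *Ube2c* fell by 1.96 ± 0.09 and *Cdc20* by 1.79 ± 0.09. *Birc5* (survivin) and *Aurkb* (aurora kinase B), which act together on chromosomes, each fell by a similar amount (1.81 ± 0.13 and 1.81 ± 0.13). The proliferation marker *Mki67* was at 4.38, 4.00 and 4.05 in the control and at 2.48, 2.57 and 2.43 with pinosylvin (log2 fold change -1.65 ± 0.10, adjusted p = 3.23e-06), and its 3 other probes fell by 1.61 to 1.67. The transcription factors *Foxm1* (forkhead box M1) and *Mybl2*, which activate mitotic genes, fell by 1.62 ± 0.09 and 1.28 ± 0.13. Other probes of *Aurka* and *Cenpa* were not past the threshold, with log2 fold changes of 0.09 and -0.52 beside -1.36 and -1.50 for the probes used.

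**Figure D1:**
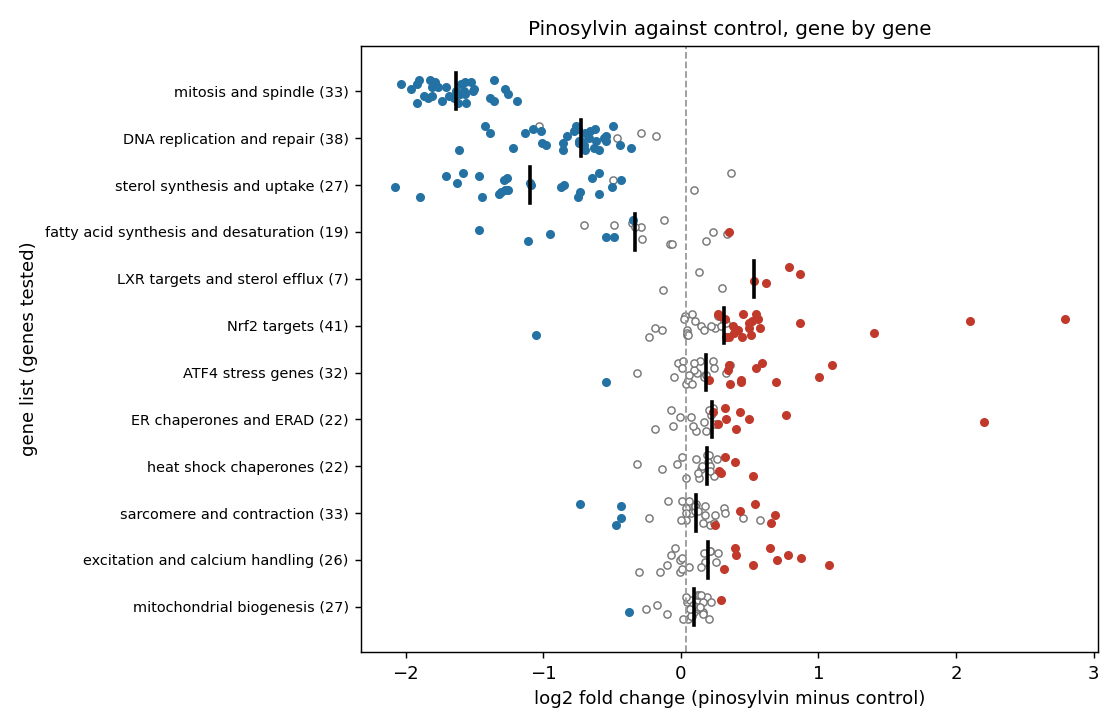
Log2 fold change of every tested gene of 12 gene lists, pinosylvin minus control, with 1 point per gene. Filled points are genes past the threshold (red higher, blue lower), open points are the other genes, black bars are list medians and the dashed line is the median of all named genes. The mitotic genes lie between -2.04 and -1.19, all to the left of the line, and the list medians range from -1.64 to 0.53.

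Most genes of DNA replication and repair fell, by less. Of 42 listed, 38 were tested and 34 fell, with a median of -0.72 (-0.75 and -0.68 within the slides). Nucleotide supply held the largest decrease of the list. *Tk1* (thymidine kinase 1) was at 4.12, 4.22 and 4.07 in the control and at 2.54, 2.69 and 2.34 with pinosylvin (log2 fold change -1.61 ± 0.12, adjusted p = 7.51e-06), and *Rrm2* (ribonucleotide reductase regulatory subunit M2) fell by 1.39 ± 0.07. The histone chaperone *Asf1b* fell by 1.43 ± 0.08 and the repair gene *Brca2* by 1.13 ± 0.09. The sliding clamp *Pcna* (proliferating cell nuclear antigen) fell by 0.70 ± 0.06 and the replication factor *Cdc45* by 0.78 ± 0.10. The S-phase factor *E2f1* went from 3.09, 3.19 and 3.03 to 2.59, 2.64 and 2.62 (log2 fold change -0.49 ± 0.06, adjusted p = 0.000525). In the replicative helicase, *Mcm4* (minichromosome maintenance complex component 4) fell by 0.62 ± 0.08, and *Mcm7* had a log2 fold change of -0.18 ± 0.07 (adjusted p = 0.102, and 0.0423 with blocks).

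Of 23 tested genes of CDK inhibition, G1 cyclins, pocket proteins and the p53 pathway, 4 rose and 1 fell, and 7 rose and 2 fell with blocks, with a median of 0.14. *Cdkn1a* (p21) was at 5.63, 5.64 and 5.63 in the control and at 5.99, 6.02 and 5.89 with pinosylvin (log2 fold change 0.33 ± 0.06, adjusted p = 0.00422). *Gadd45a* (growth arrest and DNA damage inducible alpha) rose from 3.37, 3.28 and 2.88 to 4.32, 4.16 and 4.11 (log2 fold change 1.02 ± 0.14, adjusted p = 0.000783). The groups did not overlap for either gene. *Bbc3* and *Tp53inp1*, both p53 targets, rose by 0.33 ± 0.07 and 0.44 ± 0.09. *Cdkn2c* (p18), an inhibitor of the G1 kinases, fell by 1.06 ± 0.09, and *Cdkn1b* (p27) had a log2 fold change of 0.00 ± 0.09 (adjusted p = 0.992).

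Promoters of the mitotic genes were searched for short motifs, which describe the listed genes whatever the treatment. In the RefSeq promoter table of the rat assembly GRCr8, which holds 250 bases before and 50 after the start of a gene, 27 of the 33 tested mitotic genes had an entry. The letters TTTGAA, the core of the cell cycle homology region, were found on either strand in 19 of 27 (70.4%), beside 19.4% of the 27457 genes in the table. The CCAAT box was found on either strand in 20 of 27 (74.1%), beside 39.6% of all genes. Both stood in 16 of 27 (59.3%) mitotic promoters and in 7.96% of all genes. Of 30 replication genes with an entry, 3 (10%) held TTTGAA and 19 (63.3%) held CCAAT. Of 33 genes of the Nrf2 list with an entry, 3 (9.09%) held TTTGAA and 11 (33.3%) held CCAAT. The promoter table holds more genes than were tested, and the shares among tested genes alone were not computed. The 120 bases before the start, 5′ to 3′, of the 4 mitotic genes with the largest decrease among those with both motifs there are shown, with both motifs in capitals. The genes were chosen after their values were seen. The stretches are chr5:137255800-137255919 on the minus strand for *Cdc20*, chr7:135302596-135302715 on the plus strand for *Espl1* (separase), chr1:199952594-199952713 on the minus strand for *Mki67* and chr8:79981659-79981778 on the minus strand for *Ccnb2* (cyclin B2).
Cdc20: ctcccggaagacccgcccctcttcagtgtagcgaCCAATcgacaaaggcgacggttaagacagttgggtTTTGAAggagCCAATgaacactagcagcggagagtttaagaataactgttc
Espl1: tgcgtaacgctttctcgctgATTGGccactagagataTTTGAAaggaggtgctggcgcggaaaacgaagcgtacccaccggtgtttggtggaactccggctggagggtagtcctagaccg
Mki67: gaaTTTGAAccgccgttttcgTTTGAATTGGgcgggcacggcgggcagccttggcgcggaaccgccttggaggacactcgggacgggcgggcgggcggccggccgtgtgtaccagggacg
Ccnb2: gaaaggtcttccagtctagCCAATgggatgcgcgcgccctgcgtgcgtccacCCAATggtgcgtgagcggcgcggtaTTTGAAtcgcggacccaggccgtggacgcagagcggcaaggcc
ATTGG is CCAAT read on the other strand. In *Mki67* the capitals of the second TTTGAA run into those of ATTGG, because the motifs share a base. A match describes the letters and shows neither a binding site nor a cause.

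Most genes of cholesterol synthesis fell. Of 28 genes of sterol synthesis and uptake, 27 were tested and 24 fell, with a median of -1.09 (-1.13 and -1.12 within the slides). *Tm7sf2* (transmembrane 7 superfamily member 2), a sterol reductase of the late pathway, had log2 signals of 3.27, 3.28 and 2.79 in the control and 1.09, 1.18 and 0.83 with pinosylvin. Every pinosylvin array was below every control array, a 4.23-fold decrease (log2 fold change -2.08 ± 0.16, adjusted p = 1.05e-05). *Hmgcs1* (3-hydroxy-3-methylglutaryl-CoA synthase 1), an early enzyme, fell from 6.77, 6.85 and 6.46 to 4.87, 5.18 and 4.90 (log2 fold change -1.71 ± 0.15, adjusted p = 3.07e-05).

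Each stretch of the pathway took part. In the mevalonate part, *Idi1* (isopentenyl-diphosphate delta isomerase 1) fell by 1.63 ± 0.10, *Acat2* by 1.59 ± 0.12 and *Fdps* (farnesyl diphosphate synthase) by 1.32 ± 0.09. *Sqle* (squalene epoxidase), which oxidises squalene, and *Lss* (lanosterol synthase), which closes its rings, fell by 1.25 ± 0.09 and 0.75 ± 0.11. Of the late enzymes, *Dhcr7* (7-dehydrocholesterol reductase) fell by 1.90 ± 0.16, *Hsd17b7* by 1.31 ± 0.08 and *Msmo1* by 0.50 ± 0.09. *Stard4*, a sterol carrier, fell by 1.45 ± 0.14. The factor *Srebf2* (sterol regulatory element binding transcription factor 2) fell by 0.44 ± 0.07 and its retention protein *Insig1* by 0.59 ± 0.12. *Insig2*, a close relative of *Insig1*, was not past the threshold (log2 fold change 0.09 ± 0.08, adjusted p = 0.472).

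Of the sterol genes, 19 had an entry in the promoter table and 15 (78.9%) held CCAAT on either strand, beside 39.6% of all genes. TTTGAA was in 2 (10.5%). The letters TCACNCCAC, a common form of the sterol regulatory element, matched in 1.25% of all genes and were not in the windows of these 19, which says only that these letters are not in these windows. The 120 bases before the start, 5′ to 3′, of the 3 genes with the largest decrease among those with CCAAT there are shown with the box in capitals, and they were chosen after their values were seen. They are chr1:212789542-212789661 for *Tm7sf2*, chr17:66547525-66547644 for *Idi1* and chr2:176804817-176804936 for *Fdps*, each on the minus strand of GRCr8.
Tm7sf2: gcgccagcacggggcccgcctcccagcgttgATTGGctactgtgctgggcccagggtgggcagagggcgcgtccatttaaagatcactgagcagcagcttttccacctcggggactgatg
Idi1: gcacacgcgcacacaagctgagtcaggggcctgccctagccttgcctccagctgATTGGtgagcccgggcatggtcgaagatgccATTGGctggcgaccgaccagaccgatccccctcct
Fdps: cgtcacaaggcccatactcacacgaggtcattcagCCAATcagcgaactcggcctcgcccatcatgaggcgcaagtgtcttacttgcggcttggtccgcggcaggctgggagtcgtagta

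Fatty acid synthesis fell in part. Of 19 tested genes of fatty acid synthesis and desaturation, 6 fell and 1 rose, with a median of -0.34, and 10 fell and 3 rose with blocks. *Elovl6* (ELOVL fatty acid elongase 6), which lengthens palmitate, was at 1.56, 1.34 and 1.61 in the control and at 0.14, 0.04 and -0.08 with pinosylvin (log2 fold change -1.47 ± 0.11, adjusted p = 8.71e-06). The desaturase *Scd* (stearoyl-CoA desaturase) fell from 4.26, 4.36 and 4.14 to 3.17, 3.14 and 3.12 (log2 fold change -1.11 ± 0.10, adjusted p = 3.13e-05). In neither gene did the groups overlap. *Acss2*, which makes acetyl-CoA from acetate, fell by 0.95 ± 0.11, *Acly* (ATP citrate lyase) by 0.54 ± 0.09 and the desaturase *Fads2* by 0.48 ± 0.09.

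Of 7 tested genes of sterol efflux and the liver X receptors, which respond to oxysterols, 4 rose, with a median of 0.53 (0.45 and 0.43 within the slides). *Abca1* (ATP binding cassette subfamily A member 1), which exports cholesterol, had log2 signals of -3.35, -3.34 and -3.96 in the control and -2.62, -2.73 and -2.94 with pinosylvin (log2 fold change 0.79 ± 0.17, adjusted p = 0.01). Apolipoprotein E (*Apoe*) rose from -2.78, -2.34 and -2.53 to -1.64, -1.58 and -1.84 (log2 fold change 0.87 ± 0.12, adjusted p = 0.000923). All pinosylvin arrays were above all control arrays for both genes. *Mylip*, a ubiquitin ligase, rose by 0.53 ± 0.10. *Abcg1* rose by 0.62 ± 0.16, a call that was lost without control replicate 2 (adjusted p = 0.0581), pinosylvin replicate 1 (0.0806) or pinosylvin replicate 2 (0.0508).

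In the list of Nrf2 and its targets part of the genes rose, with a wide spread between genes. Of 43 listed, 41 were tested, 21 rose and 1 fell, with a median of 0.31 (0.32 and 0.31 within the slides). *Gsta1* (glutathione S-transferase alpha 1) had the largest increase of the list, with log2 signals of 0.78, 0.83 and 0.73 in the control and 3.69, 3.47 and 3.55 with pinosylvin. The pinosylvin arrays were all far above the control arrays, a 6.93-fold increase (log2 fold change 2.79 ± 0.09, adjusted p = 1.8e-07), and a further probe gave 2.78. *Ggt1* (gamma-glutamyltransferase 1), an enzyme of glutathione breakdown at the cell surface, rose from -0.26, -0.14 and -0.45 to 1.93, 1.81 and 1.71 (log2 fold change 2.10 ± 0.10, adjusted p = 7.24e-07). *Gstp1* (glutathione S-transferase pi 1) rose from 4.62, 4.76 and 4.50 to 6.05, 6.07 and 5.96 (log2 fold change 1.40 ± 0.08, adjusted p = 1.63e-06). These 3 genes stood apart from the rest of the list, whose other increases were at most 0.86.

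*Hmox1* (heme oxygenase 1), which degrades heme, was at -1.34, -1.33 and -1.59 in the control and at -0.41, -0.57 and -0.68 with pinosylvin (log2 fold change 0.86 ± 0.13, adjusted p = 0.00109). *Nqo1* (NAD(P)H quinone dehydrogenase 1) went from 3.38, 3.28 and 3.38 to 3.803, 3.67 and 3.70 (log2 fold change 0.38 ± 0.07, adjusted p = 0.00414). The aldo-keto reductase *Akr1b8* rose by 0.57 ± 0.08, the cystine carrier *Slc7a11* by 0.45 ± 0.10 and the iron storage gene *Fth1* (ferritin heavy chain 1) by 0.38 ± 0.06. Catalase (*Cat*) and superoxide dismutase 1 (*Sod1*) rose by 0.51 ± 0.10 and 0.42 ± 0.09. The adaptor *Sqstm1* (sequestosome 1) rose by 0.51 ± 0.07, whereas its 2 other probes gave -0.19 and 0.56. *Nfe2l2*, the gene of Nrf2 itself, was at 4.01, 4.05 and 3.98 in the control and at 4.21, 4.00 and 3.95 with pinosylvin (log2 fold change 0.04 ± 0.11, adjusted p = 0.873), and the groups overlapped. *Gclc*, the catalytic subunit that limits glutathione synthesis, was not past the threshold (log2 fold change -0.14 ± 0.09, adjusted p = 0.323). *Txnrd1* (thioredoxin reductase 1) had a log2 fold change of 0.29 ± 0.10 and an adjusted p of 0.0648, and passed in 7 of 21 alternatives, among them with blocks (adjusted p = 0.00329) and without control replicate 1 (adjusted p = 0.0451). *Gsta2* carried the call of a decrease, but its signal was near background in both groups and no fold change is given. Without pinosylvin replicate 2 or replicate 3 its adjusted p was 0.106 or 0.0614.

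Stress genes of the endoplasmic reticulum and of the integrated stress response rose in part. Of 22 tested genes of chaperones and protein degradation of the endoplasmic reticulum, 9 rose, with a median of 0.23 (0.20 and 0.28 within the slides). *Derl3* (derlin 3), a part of the degradation pathway, stood at background on all control arrays and well above it on all pinosylvin arrays, at least 4.32-fold higher (adjusted p = 3.06e-06). The chaperone *Hyou1* (hypoxia up-regulated 1) was at 2.45, 2.70 and 2.60 in the control and at 3.25, 3.27 and 3.51 with pinosylvin (log2 fold change 0.76 ± 0.09, adjusted p = 0.000208). *Dnajc3* rose by 0.50 ± 0.07 and the disulfide isomerase *Pdia4* by 0.43 ± 0.06. Of 32 tested stress genes around the factor ATF4, 11 rose and 1 fell, with a median of 0.18. The factor *Atf5* (activating transcription factor 5) rose from 3.83, 3.82 and 3.65 to 4.96, 4.86 and 4.77 (log2 fold change 1.10 ± 0.09, adjusted p = 1.55e-05). *Ppp1r15a*, a phosphatase subunit that ends the stress response, rose from 3.26, 3.24 and 2.92 to 3.88, 3.84 and 3.78 (log2 fold change 0.69 ± 0.11, adjusted p = 0.00167). The pinosylvin arrays were above the control arrays throughout for both. *Atf4*, *Atf3* and *Ddit3* were not past the threshold, with log2 fold changes of 0.18 ± 0.09, 0.04 ± 0.07 and 0.05 ± 0.07 (adjusted p = 0.254, 0.793 and 0.702).

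Of 22 tested heat shock chaperones 5 rose, and 10 with blocks, with a median of 0.19. *Hspb8* (heat shock protein family B member 8) rose by 0.52 ± 0.10, *Hspa9* by 0.39 ± 0.08 and *Hsp90ab1* by 0.29 ± 0.06. Of 9 tested genes of the metal response 3 rose, and with blocks 4 rose and 2 fell. The metallothionein *Mt2A* was at -2.16, -2.17 and -2.51 in the control and at -1.05, -1.37 and -1.44 with pinosylvin (log2 fold change 0.99 ± 0.13, adjusted p = 0.000541), and the zinc exporter *Slc30a1* rose by 0.40 ± 0.08. *Mt1* had a log2 fold change of -0.33 ± 0.10 (adjusted p = 0.0528) and passed in 11 of 20 alternatives, among them with blocks (adjusted p = 0.00657) and without pinosylvin replicate 1 (adjusted p = 0.0403). In the aryl hydrocarbon receptor pathway, 1 of 7 tested genes rose and 1 fell, and 1 rose and 3 fell with blocks. The receptor gene *Ahr* rose by 1.003 ± 0.15 (adjusted p = 0.00124), with 1 of 3 control arrays well above background. The repressor gene *Ahrr* fell from 4.80, 5.03 and 4.72 to 4.11, 4.18 and 4.04 (log2 fold change -0.74 ± 0.08, adjusted p = 0.000183). *Cyp1a1* and *Cyp1a2*, classical targets of the receptor, did not pass the filter for testing.

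**Figure D2:**
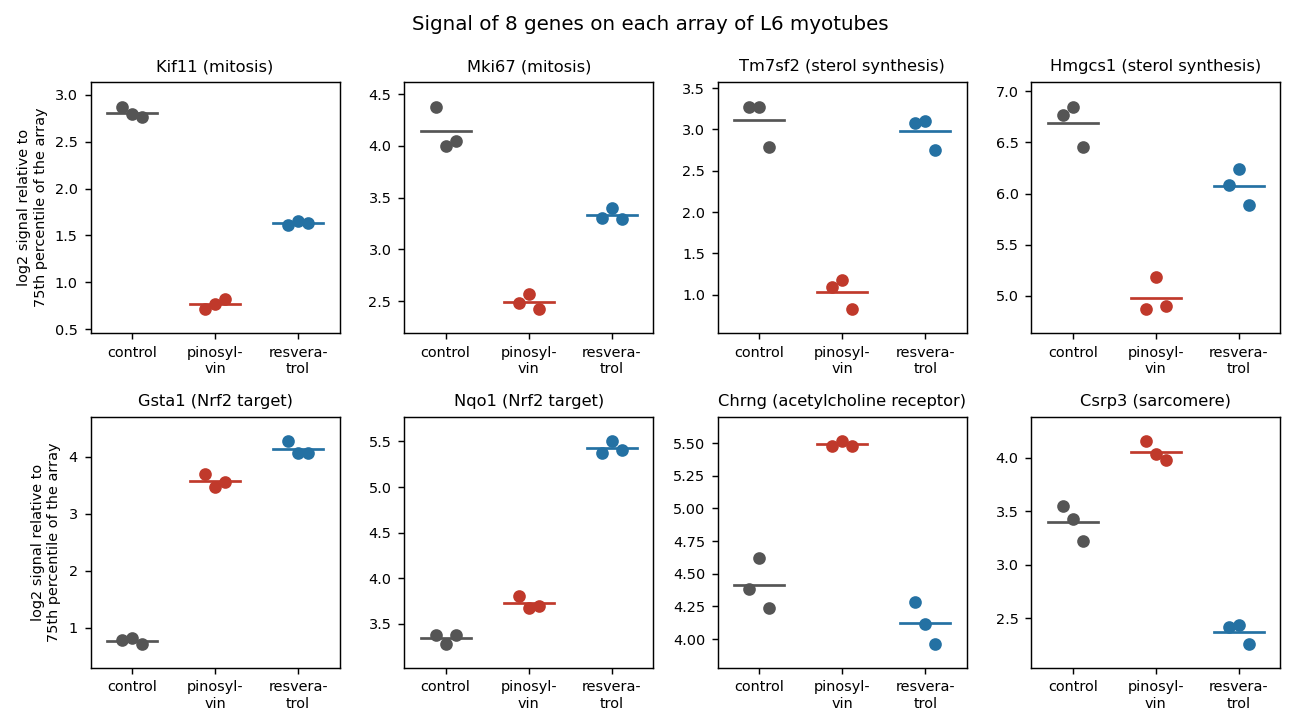
Log2 signal relative to the 75th percentile of the array for 8 genes, with 1 point per array, 3 arrays per group and a line at each group's mean. *Kif11*, *Mki67*, *Tm7sf2* and *Hmgcs1* are lower on the 3 pinosylvin arrays than on the 3 control arrays, and *Gsta1*, *Nqo1*, *Chrng* and *Csrp3* are higher, with no overlap. The resveratrol arrays are shown beside them.

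Some muscle genes rose and others fell. Of 26 tested genes of excitation and calcium handling, 9 rose, with a median of 0.19 (0.19 and 0.22 within the slides). *Chrng* (cholinergic receptor nicotinic gamma subunit), a subunit of the embryonic acetylcholine receptor, had log2 signals of 4.38, 4.62 and 4.24 in the control and 5.48, 5.51 and 5.48 with pinosylvin (log2 fold change 1.08 ± 0.10, adjusted p = 6.29e-05). The delta subunit gene *Chrnd* rose from 1.55, 1.57 and 1.07 to 2.45, 2.29 and 2.06 (log2 fold change 0.87 ± 0.14, adjusted p = 0.00238). *Musk*, the kinase that clusters the receptor, rose by 0.70 ± 0.15, and *Stac3*, which couples excitation to contraction, by 0.78 ± 0.11. The calcium pump gene *Atp2a1* rose by 0.39 ± 0.07. In each of these genes every pinosylvin array was above every control array.

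Of 11 tested myogenic factors and fusion genes, 2 rose and 1 fell, with 4 rising with blocks. *Myog* (myogenin), the factor of terminal differentiation, was at 5.24, 5.25 and 5.08 in the control and at 6.01, 5.85 and 5.91 with pinosylvin (log2 fold change 0.73 ± 0.15, adjusted p = 0.00654). *Myf6* (myogenic factor 6), which marks later stages, went from -2.72, -3.19 and -3.22 to -3.94, -3.83 and -3.89 (log2 fold change -0.84 ± 0.15, adjusted p = 0.00318). The first rose and the other fell, with no overlap between the groups. Of 33 tested sarcomere genes 5 (15.2%) rose and 4 (12.1%) fell, beside 8.59% and 9.77% of all named genes, with a median of 0.11. With blocks 11 rose and 5 fell, beside 17.1% and 14.3% of all named genes. *Csrp3* (cysteine and glycine rich protein 3), a Z-disc protein, rose by 0.65 ± 0.12, the slow myosin *Myh7* by 0.68 ± 0.15 and the fast troponin *Tnnt3* by 0.54 ± 0.08. The myosin heavy chains *Myh8* (perinatal) and *Myh1* (fast) fell, from 5.73, 5.54 and 5.41 to 5.09, 5.18 and 5.10 (log2 fold change -0.44 ± 0.09, adjusted p = 0.00687) and from 5.27, 5.06 and 4.95 to 4.65, 4.63 and 4.70 (log2 fold change -0.43 ± 0.09, adjusted p = 0.00772). The embryonic myosin *Myh3* and skeletal actin *Acta1* were not past the threshold (0.09 ± 0.07 and 0.01 ± 0.08, adjusted p = 0.441 and 0.958). Of 17 tested genes of atrophy and myostatin signalling, 4 rose and 1 fell, among them *Ctsl* (cathepsin L) by 0.44 ± 0.07 and *Gabarapl1*, an autophagy gene, by 0.50 ± 0.10. The atrophy ligases *Fbxo32* and *Trim63* had log2 fold changes of 0.16 ± 0.15 and 0.13 ± 0.10 (adjusted p = 0.574 and 0.463).

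Genes of energy metabolism changed singly. Of 26 tested genes of glucose uptake and glycolysis, 4 (15.4%) rose and 3 (11.5%) fell, beside 8.59% and 9.77% of all named genes. The median of the list was 0.02. *Hk2* (hexokinase 2), which traps glucose in muscle, was at -2.54, -2.48 and -2.20 in the control and at -1.37, -1.35 and -1.42 with pinosylvin (log2 fold change 1.03 ± 0.12, adjusted p = 0.000278). All pinosylvin arrays were higher. *Slc2a4*, the gene of the insulin-responsive glucose transporter, went from 0.80, 0.74 and 0.71 to 1.15, 1.03 and 1.01 (log2 fold change 0.31 ± 0.07, adjusted p = 0.00892). Of 23 tested genes of fatty acid oxidation 3 rose, and with blocks 5 rose and 2 fell. These included the uptake genes *Cd36*, with a rise of 0.56 ± 0.08, and *Fabp3*, with 0.44 ± 0.09. Of 27 tested genes of mitochondrial biogenesis, 1 (3.7%) rose and 1 (3.7%) fell, with a median of 0.09. With blocks 4 rose and 2 fell, beside 17.1% and 14.3% of all named genes. The mitochondrial factor *Tfam* was at 2.90, 3.08 and 3.04 and 3.12, 3.10 and 3.24 (log2 fold change 0.15 ± 0.07, adjusted p = 0.222), and the coactivator *Ppargc1a* was at background. Of 21 tested genes of insulin and IGF signalling 1 rose, and 4 rose and 1 fell with blocks, with a median of 0.10.

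Sirtuins and AMPK, often named as targets of stilbenes, were tested for 15 of 19 genes, with 1 higher and 2 lower, or 2 higher with blocks. *Sirt7* went from 2.15, 2.23 and 2.28 to 1.83, 1.78 and 1.78 (log2 fold change -0.42 ± 0.06, adjusted p = 0.000815), and its other probe gave -0.32. The regulatory subunit *Prkag2* fell by 0.36 ± 0.07. The catalytic subunit *Prkaa1* was at 3.64, 3.63 and 3.49 and 3.58, 3.62 and 3.65, with overlapping groups (log2 fold change 0.03 ± 0.07, adjusted p = 0.849). *Sirt1*, *Sirt2*, *Nmnat3* and *Prkag3* had no tested probe.

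Genes of signalling changed in small numbers. Of 18 tested inflammatory genes 3 rose and 2 fell. The chemokine *Ccl2* (C-C motif chemokine ligand 2) was at -3.34, -3.16 and -3.28 in the control and at -2.06, -2.02 and -1.89 with pinosylvin (log2 fold change 1.27 ± 0.11, adjusted p = 2.93e-05), and *Cxcl1* rose from -1.43, -1.16 and -1.39 to -0.28, -0.27 and -0.21 (log2 fold change 1.07 ± 0.09, adjusted p = 2.61e-05). *Cxcl10*, a chemokine induced by interferon, fell from -1.10, -0.72 and -0.59 to -2.08, -2.12 and -1.55 (log2 fold change -1.11 ± 0.16, adjusted p = 0.00107). The arrays of the groups did not overlap for any of these. Of 16 tested interferon and antigen genes 3 fell, and 1 rose with blocks. The median of the list was 0.01, with a range of -0.65 to 1.16. Those that fell were *Irf1* and the immunoproteasome subunits *Psmb8* and *Psmb9*, by 0.38 ± 0.07, 0.46 ± 0.09 and 0.65 ± 0.11. These 3 were named after their values were seen. Of 26 tested immediate early and growth factor genes, 5 rose and 1 fell, and 9 rose and 2 fell with blocks. *Egr1* (early growth response 1) rose from -0.44, -0.19 and -0.48 to 0.89, 1.03 and 0.89 (log2 fold change 1.31 ± 0.09, adjusted p = 4.47e-06). *Myc* rose by 0.52 ± 0.08 and *Fosl1* fell by 0.63 ± 0.08.

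Of 18 tested ligands, receptors and targets of TGF-beta and BMP 3 rose and 4 fell, with a median of -0.08. The BMP target *Id1* (inhibitor of DNA binding 1), which holds back differentiation, was at -1.73, -1.74 and -1.57 in the control and at -2.47, -2.35 and -2.52 with pinosylvin (log2 fold change -0.77 ± 0.09, adjusted p = 0.000226). *Tgfbi* fell by 0.58 ± 0.10 and the feedback inhibitor *Smad7* rose by 0.46 ± 0.09. Of 25 tested genes of the extracellular matrix 4 (16%) rose and 5 (20%) fell, beside 8.59% and 9.77% of all named genes. With blocks 6 rose and 8 fell. *Col1a1* (collagen type I alpha 1 chain) fell by 0.34 ± 0.07, while periostin (*Postn*) and lumican (*Lum*) rose by 0.71 ± 0.12 and 0.53 ± 0.10. Of 14 tested genes of Wnt and Notch signalling 3 rose and 1 fell. *Sfrp4* (secreted frizzled related protein 4) was at background on all control arrays and above it on all pinosylvin arrays, at least 2.7-fold higher (adjusted p = 3.98e-06). It passed the filter for testing only through the pinosylvin group, and its call was kept with no filter on dim probes. The Wnt target *Nkd1* fell by 1.64 ± 0.17 (adjusted p = 9.32e-05), with 2 of 3 pinosylvin arrays well above background, and the Notch ligand *Dll1* rose by 0.75 ± 0.16.

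The genes with the largest changes lay partly outside these lists. Among the 15 largest increases were those of *Adgrg1* (adhesion G protein-coupled receptor G1), from -1.85, -1.74 and -1.94 to -0.19, -0.14 and 0.00 (log2 fold change 1.73 ± 0.09, adjusted p = 1.06e-06), and of *Aox1* (aldehyde oxidase 1), from -1.93, -1.96 and -1.97 to -0.16, -0.17 and -0.55 (log2 fold change 1.66 ± 0.11, adjusted p = 5.38e-06). *F13a1* (coagulation factor XIII A chain) rose by 1.59 ± 0.10, *Slc11a1* by 1.55 ± 0.14 and *Ifi27l2b* by 1.54 ± 0.10. *Tekt3* rose by 1.91 ± 0.12 and *Gzmc* by 1.75 ± 0.18, each with 2 of 3 control arrays well above background. *Tekt3* passed the filter for testing only through the pinosylvin group. Its calls against the control and against resveratrol were kept with no filter on dim probes. *Gpc5* rose by 1.69 ± 0.11, but its other probes ranged from -0.10 to 1.46. *Serpinf2*, *Fbxo36* and *C20h6orf15* were called higher with signals near background in both groups, so no fold change is given. The call of *C20h6orf15* was lost without control replicate 1 (adjusted p = 0.0547) or control replicate 3 (0.0519).

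Among the 15 largest decreases, *Pimreg*, a regulator of the metaphase to anaphase transition, fell from 3.06, 3.21 and 3.34 to 0.87, 0.999 and 1.13 (log2 fold change -2.21 ± 0.12, adjusted p = 1.64e-06). *Iqgap3* fell from -0.84, -0.96 and -1.06 to -3.11, -2.83 and -3.24 (log2 fold change -2.11 ± 0.13, adjusted p = 3.17e-06). Genes of both rankings had been required to show no overlap between the pinosylvin and control arrays. *Fam83d*, *Aspm*, *Cdca3*, *Nusap1*, *Sapcd2*, *Mxd3* and the repair gene *Neil3* fell by 1.93 to 2.04. *Slc35f2* was at background with pinosylvin, a decrease of at least 2.67-fold. It passed the filter for testing only through the control group, and its call was kept with no filter on dim probes. *Asic1* was called lower with the pinosylvin arrays at background and control arrays at -2.70, -4.56 and -4.73, and because 1 control array stood apart no bound is given. *Asic1* passed the filter for testing only through the control group. Its call was lost in 7 alternatives, among them with no filter on dim probes and without pinosylvin replicate 3 (adjusted p = 0.0648). *Plk5* was called lower with the pinosylvin arrays at background and control arrays at -1.86, -3.87 and -3.76, of which 1 also stood apart, and no fold change is given. Its adjusted p was 0.0624 without pinosylvin replicate 1.

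Pinosylvin and resveratrol, given at the same dose and time, were compared directly on the same 12-array fit. Of the probes tested, 1864 (7.68%) were higher with pinosylvin and 1664 (6.85%) were lower, and of the named genes 873 (8.13%) were higher and 887 (8.26%) lower, with a median of 0.00. With blocks 3507 probes were higher and 2816 lower. The higher count was 1224, 1086, 1207 and 1104 without pinosylvin replicate 1 or 2 or resveratrol replicate 2 or 3, and the lower count was 1062 and 1030 without pinosylvin replicate 2 or resveratrol replicate 2. The 2 comparisons share the pinosylvin arrays. The mitotic genes were lower with pinosylvin than with resveratrol in 30 of 33 cases, with a median difference of -0.77. *Kif11* was at 1.61, 1.65 and 1.63 on the resveratrol arrays, below the control and above pinosylvin in every array (difference -0.86, 95% interval -0.995 to -0.73, adjusted p = 2.32e-05). *Mki67* was at 3.30, 3.40 and 3.30 with resveratrol (difference -0.84, 95% interval -1.07 to -0.61, adjusted p = 0.000529). For the replication genes the difference had a median of -0.07, with 12 lower and 6 higher with pinosylvin. *Pola1* and *Prim1* did not pass the threshold (differences 0.02, 95% interval -0.23 to 0.26, and -0.01, 95% interval -0.16 to 0.13), and a p that misses the threshold does not show that the compounds act alike. *Mcm6* and *Mcm3* were higher with pinosylvin than with resveratrol (differences 0.75, 95% interval 0.50 to 1.01, adjusted p = 0.0018, and 0.45, 95% interval 0.27 to 0.63, adjusted p = 0.00461).

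Most sterol genes also differed between the stilbenes. Of 27 tested, 21 were lower with pinosylvin than with resveratrol, with a median difference of -0.82. *Tm7sf2* was at 3.08, 3.11 and 2.75 on the resveratrol arrays, overlapping the control arrays and far above every pinosylvin array (difference -1.94, 95% interval -2.29 to -1.60, adjusted p = 4.4e-05). *Sc5d* and *Cyp51* were lower by smaller amounts (differences -1.03, 95% interval -1.18 to -0.88, and -1.13, 95% interval -1.34 to -0.92). *Fdft1* and *Srebf2* did not pass the threshold (differences -0.19, 95% interval -0.48 to 0.11, and -0.16, 95% interval -0.31 to -0.01). Of the fatty acid genes 6 of 19 were lower with pinosylvin, among them *Acss2* (difference -1.13, 95% interval -1.38 to -0.88, adjusted p = 0.000132), and of the efflux and liver X receptor genes 4 of 7 were higher, among them *Abca1* (difference 1.24, 95% interval 0.87 to 1.62, adjusted p = 0.000936).

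Most Nrf2 targets were lower with pinosylvin than with resveratrol. Of 41 tested, 27 were lower and 1 was higher, with a median difference of -0.49. *Nqo1* was at 5.37, 5.50 and 5.40 with resveratrol, above all control and all pinosylvin arrays (difference -1.70, 95% interval -1.85 to -1.55, adjusted p = 2.6e-06). *Srxn1* (sulfiredoxin 1) and *Gclc* were also lower with pinosylvin (differences -1.49, 95% interval -1.77 to -1.20, adjusted p = 5.82e-05, and -0.99, 95% interval -1.18 to -0.80, adjusted p = 5.88e-05). *Ggt1* was the gene that was higher with pinosylvin (difference 0.36, 95% interval 0.15 to 0.58, adjusted p = 0.0316), a call lost without pinosylvin replicate 1 (adjusted p = 0.106) or replicate 2 (0.0888) and without resveratrol replicate 2 (0.107) or replicate 3 (0.103). *Akr1b1*, *Fth1* and *Sod1* did not pass the threshold, with differences of 0.02, 95% interval -0.13 to 0.17, 0.02, 95% interval -0.11 to 0.15, and -0.09, 95% interval -0.28 to 0.10.

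**Figure D3:**
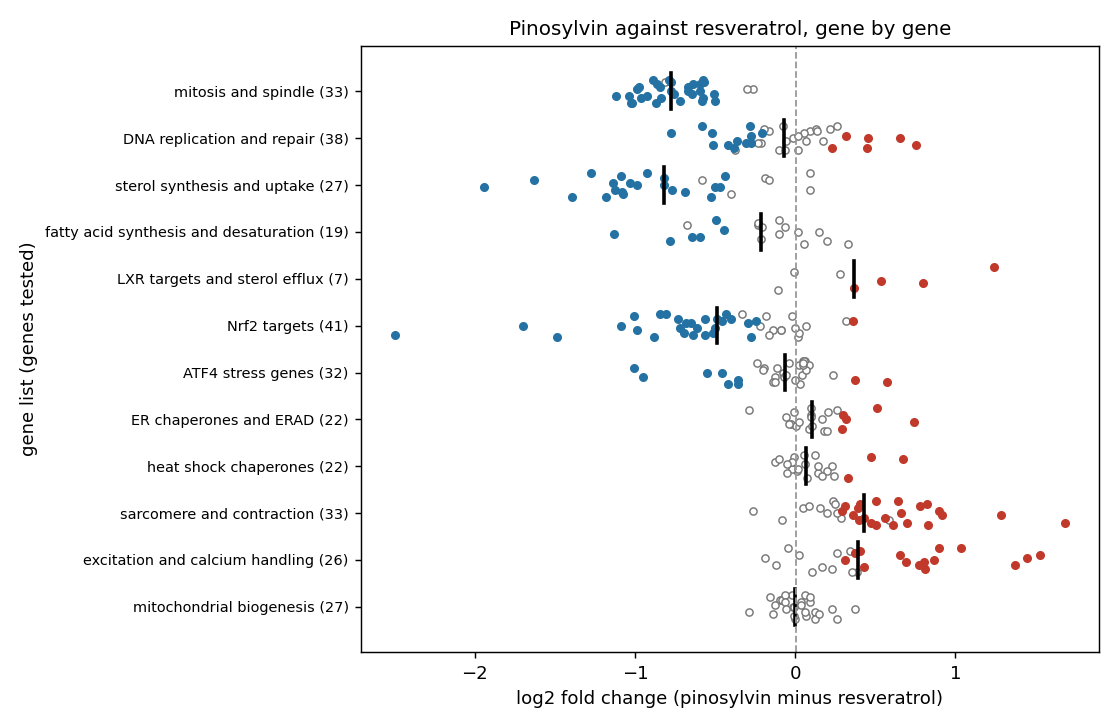
Log2 fold change of every tested gene of 12 gene lists, pinosylvin minus resveratrol, with 1 point per gene. Filled points are genes past the threshold (red higher, blue lower), open points are the other genes, black bars are list medians and the dashed line is the median of all named genes. The medians are -0.77 for mitotic genes, -0.82 for sterol genes, -0.49 for Nrf2 targets, 0.43 for sarcomere genes and 0.39 for excitation genes.

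Of 33 sarcomere genes 22 were higher with pinosylvin than with resveratrol, with a median difference of 0.43, and of 26 excitation genes 15 were higher, with a median difference of 0.39. Of 11 myogenic factors 5 were higher and 1 lower. *Csrp3* was at 2.42, 2.44 and 2.26 with resveratrol, below all control arrays, and above them with pinosylvin (difference 1.68, 95% interval 1.42 to 1.95, adjusted p = 2.32e-05). *Myog* was at 4.72, 4.67 and 4.65 with resveratrol (difference 1.24, 95% interval 0.92 to 1.56, adjusted p = 0.000375). Creatine kinase (*Ckm*), *Stac3* and *Chrng* differed by similar amounts (differences 1.28, 95% interval 0.98 to 1.59, 1.53, 95% interval 1.29 to 1.77, and 1.37, 95% interval 1.14 to 1.60). Matrix genes were higher with pinosylvin in 10 of 25 cases, among them *Postn* (difference 1.38, 95% interval 1.11 to 1.64, adjusted p = 5.98e-05). The mitochondrial genes had a median difference of 0.00 and 0 of 27 past the threshold in limma, with 3 at an unadjusted p under 0.05 and 2 higher with blocks.

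Beyond the lists, *S100a3*, *F13a1*, *Tekt3*, *Aspg* and *Sox8* were among the 10 genes highest with pinosylvin relative to resveratrol of those past the threshold in both comparisons. *S100a3* was at 2.49, 2.31 and 2.46 with pinosylvin and 0.15, 0.13 and 0.14 with resveratrol (difference 2.28, 95% interval 2.13 to 2.42, adjusted p = 1.5e-07), and *F13a1* was at -1.90, -2.28 and -1.98 and -3.94, -4.10 and -4.05 (difference 1.98, 95% interval 1.75 to 2.20, adjusted p = 8.69e-06). *Cxcl10* was among the genes highest with resveratrol, with -2.08, -2.12 and -1.55 on the pinosylvin and -0.09, 0.01 and 0.12 on the resveratrol arrays (difference -1.93, 95% interval -2.29 to -1.57, adjusted p = 5.56e-05). The arrays of the compounds did not overlap in these genes. Against the control, *Aspg* had fallen (log2 fold change -0.82 ± 0.12, adjusted p = 0.000912), whereas *S100a3*, *F13a1*, *Tekt3* and *Sox8* had risen. *Hk2*, *Apoe* and *Vegfa* illustrate the range of other genes, with differences of 1.05, 95% interval 0.78 to 1.32, adjusted p = 0.000361 for *Hk2*, 0.28, 95% interval 0.00 to 0.55, adjusted p = 0.171 for *Apoe* and 0.21, 95% interval 0.06 to 0.36, adjusted p = 0.063 for *Vegfa*, whose adjusted p was 0.0288 with blocks.

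GR24, which is not a stilbene, differed from pinosylvin in more genes. Of the probes tested 6498 (26.8%) were higher and 7193 (29.6%) lower with pinosylvin, and of the named genes 2906 (27.1%) were higher and 3732 (34.7%) lower. Sarcomere genes were higher with pinosylvin in 31 of 33 cases and excitation genes in 25 of 26, and Nrf2 targets were lower in 37 of 41. Mitotic genes were higher with pinosylvin in 30 of 33 cases, with a median difference of 1.12. The sterol genes had a median difference of -0.26, with 13 lower and 3 higher with pinosylvin.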

How the data were processed

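For each array, the authors deposited the output of Feature Extraction 12.0.0.7, the software named in the submitters' processing notes, with a processed signal that is an intensity after background subtraction within the array. They also deposited a series table in log2 units whose normalization is not stated, with column medians of 9.21 to 9.24. No spot was saturated. After control spots were dropped and outlier-marked spots set to missing, the log2 signals of the spots of each probe were averaged, and the 75th percentile over probes was subtracted from each array. Testing required that at least 0.5 of the spots of a probe be well above background on every array of any group, and 24279 of 45598 probes met this, 21217 of them on all 12 arrays. Gene names came from RefSeq accessions looked up in the annotation of GRCr8, which covered 21109 probes. The 13648 named probes that were tested belong to 10741 genes, and each gene was represented by its brightest tested probe on average.

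A single limma fit (version 3.58.1, R 4.3.3) of the 12 arrays used group means and eBayes, and p-values were adjusted by the Benjamini-Hochberg method across the tested probes, with a threshold of 0.05. Contrasts were pinosylvin minus control, minus resveratrol and minus GR24. The procedure was tested on simulated data. Where no array of a group was well above background, the change is given as a bound, for which signals under the lowest signal well above background on their array were raised to it. Genes named are the 15 largest increases and decreases against the control, past the threshold with no overlap between the groups, the 10 largest each way against resveratrol among genes past the threshold in both comparisons, and members of the gene lists. Not all of these are described. The members and lists were chosen with earlier results of these data known. Lists were described by counts and medians, and no list was tested as a whole.

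The series description gives 3 independent experiments, and the titles number the replicates without tying a number to an experiment. Across 21202 probes, deviations from the group mean of pinosylvin replicates 1, 2 and 3 correlated with those of the same control replicate at 0.605, 0.529 and 0.793, with those of resveratrol at 0.440, 0.352 and 0.831, and with those of GR24 at 0.523, 0.331 and 0.729. Pinosylvin replicate 1 with replicate 2 of another group, and 2 with 1, correlated at 0.314 and 0.425 for the control, 0.516 and 0.500 for resveratrol and 0.518 and 0.440 for GR24. For resveratrol both exceeded the values of the same number on that slide. Pairs across the slides were at -0.681 to -0.478. These values separate the slides and do not establish a pairing by experiment within slide 1. Probes are not independent replicates. Replicates 1 and 2 were on 1 slide and replicate 3 on another. Each group held the same column of every slide, so position and group cannot be told apart. The number of arrays limits the precision.

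As alternatives, the arrays were quantile normalized, or corrected by normexp (offset 50, on the median signal because no mean signal is given) before either scaling, or replaced by the values of the series table. The filter was dropped or made to require all 12 arrays, the percentile was taken over the probes that passed the latter, and outlier-marked spots were kept. The fit took the slide or the replicate number as blocks, used trend and robust settings, or was restricted to the 6 arrays compared, to slide 1 or, for values, to slide 2. Each array was also left out in turn, and list medians were also computed with the probes of each gene averaged. The percentile over spots was chosen after seeing the data.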

Additional observations from a re-analysis of the deposited data

How the results depend on the processing

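Counts against the control moved most with the model and the filter. With no filter on dim probes, 1026 probes were higher with pinosylvin, and with only the 6 arrays compared 1083. With the replicate number as a block, 3954 were higher and 2993 lower, and with the slide as a block 4031 and 3043. Against resveratrol, the counts were 1072 higher and 903 lower with no filter, 3507 and 2816 with the replicate block, and 3564 and 2879 with the slide block. Leaving out single arrays gave 1236 to 1810 higher probes and 1530 to 1845 lower ones against the control. Against resveratrol it gave 1086 to 1533 higher and 1030 to 1282 lower. The cause was not tested.

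Of the genes named that had changed against the control, 142 of 163 kept their call under every alternative, 21 lost it under at least 1 and 0 changed sign. Calls lost with only the 6 arrays compared, where the resveratrol and GR24 arrays add nothing to the spread, included those of *Abca1*, *Bbc3*, *Cebpa*, *Col1a1*, *Hsp90ab1*, *Myh7*, *Per2*, *Slc2a4* and *Sod1*. Against resveratrol 104 of 126 kept it. The medians of 10 lists, all close to 0, lay on both sides of 0 when single arrays were left out, and those of 8 lists changed sign on 1 of the slides. Among these, the median of the TGF-beta and BMP list ranged from -0.0976 to 0.00111 when single arrays were left out, and crossed 0 without pinosylvin replicate 3. The median of the Wnt and Notch list was -0.00882 on the 4 arrays of slide 2. The replicate block changed no call of a named gene against the control other than those given beside it and that of *Ckm*, which rose with it (adjusted p = 0.0342). Array number limits what could be called, and signals near background limit the fold changes of the dimmest genes.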

Other observations

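Genes outside the account above were measured in 5 further lists. Of 13 tested genes of the hypoxia response, 4 rose and 1 fell, with a median of 0.14. *Vegfa* (vascular endothelial growth factor A) was at 1.23, 1.42 and 1.40 in the control and at 2.14, 2.16 and 2.20 with pinosylvin (log2 fold change 0.82 ± 0.07, adjusted p = 2.07e-05), and adrenomedullin (*Adm*) rose from 1.19, 1.31 and 1.15 to 2.15, 2.10 and 2.03 (log2 fold change 0.87 ± 0.07, adjusted p = 1.44e-05). All pinosylvin arrays were above all control arrays for both genes. *Ankrd37* rose by 0.67 ± 0.08 and *Ndrg1* fell by 0.50 ± 0.06, while the factor *Hif1a* was not past the threshold (log2 fold change 0.18 ± 0.08, adjusted p = 0.17). Of 16 tested members of the Bcl2 family 2 rose and 2 fell. *Bok*, an effector of apoptosis, fell from 5.85, 5.78 and 5.74 to 4.97, 4.76 and 4.67 (log2 fold change -0.99 ± 0.09, adjusted p = 5.3e-05), and *Mcl1*, an inhibitor, was not past the threshold (log2 fold change -0.12 ± 0.11, adjusted p = 0.547).

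Of 12 tested drug and organic anion transporters and conjugating enzymes, 1 rose and 3 fell, and 3 rose and 3 fell with the replicate number as a block. *Sult1a1* (sulfotransferase family 1A member 1), which conjugates phenols, was at -0.94, -0.81 and -1.0003 in the control and at -1.88, -1.96 and -1.997 with pinosylvin (log2 fold change -1.03 ± 0.07, adjusted p = 4.46e-06). The anion carrier *Slco3a1* fell by 0.68 ± 0.10. Of 14 tested clock genes 1 fell, and with blocks 4 rose and 1 fell. It was *Per2* (period circadian regulator 2), from -0.47, -0.70 and -0.46 to -0.86, -0.96 and -0.95 (log2 fold change -0.38 ± 0.07, adjusted p = 0.00607), named after its values were seen. Of 26 tested proteasome subunits, 0 passed the threshold in limma, with 4 higher and 0 lower at an unadjusted p under 0.05, and with blocks 6 were higher. Their median was 0.09.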
